A study of Macaca mulatta with 8 samples.

Results

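Chaperonins are ring-shaped protein-folding machines that take up an unfolded protein and let it fold inside a closed cavity. Here, 10 chaperonin genes were followed in primary microglia: the HSP60 pair of the mitochondrion, HSPD1 and HSPE1, and the 8 subunits of the cytosolic CCT ring, TCP1, CCT2, CCT3, CCT4, CCT5, CCT6A, CCT7 and CCT8. They were taken by gene symbol and not by a cut on their values, but with earlier results of these data known. Each symbol matched 1 of the 35432 gene rows in the count files. All 10 passed the filter on low counts, with between 596 and 30050 counts per library.

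The 8 poly(A) RNA-seq libraries came from microglia of 4 rhesus macaques (Macaca mulatta), isolated from frontal subcortical white matter and cultured for 8 days with M-CSF. From each donor, 1 culture received uLPS, an ultrapure lipopolysaccharide that engages TLR4, at 10 µg/mL for 16 h, and 1 culture received 5 µM MRS2578, an antagonist of the nucleotide receptor P2RY6, for 1 h before the same uLPS exposure. The donors were R07110 (male, 13 years), R12016 (male, 9 years), R02046 (female, 19 years) and R14143 (female, 6 years). All libraries were exposed to uLPS, so no value describes a resting cell, and no culture with MRS2578 alone was analysed here. The paper's methods name a DMSO vehicle for assays with MRS2578, and the labels name none.

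The conditions of donor R02046 are uncertain. GEO's labels and an expression table that accompanies the study give opposite conditions to its 2 libraries, while the other 6 libraries carry the same condition in both. The deposited labels were kept as the main assignment. Fold changes of the chaperonin genes, their counts and the list medians are also given with its conditions exchanged and without this donor, and other values are as labelled unless stated. An exchange turns the sign of every R02046 difference given here.

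Total counts per library ran from 9231109 to 32790348. Of 13 microglia and macrophage markers, 12 had a row in the files, and these summed to between 4307 and 4965 CPM (counts scaled to a common library total) with uLPS and between 4171 and 5040 CPM with MRS2578. The homeostatic microglia markers TMEM119 and CX3CR1 were under 1 CPM on average. Markers of lymphocytes and neurons were near 0, with sums of up to 0.518 and 1.08 CPM, whereas 4 fibroblast genes summed to between 74.7 and 962 CPM and are given by donor beside HSPD1. Astrocyte markers summed to between 55.6 and 156 CPM and oligodendrocyte markers to between 59.8 and 74.7 CPM. Endothelial and mural markers summed to between 157 and 301 CPM. In these 3 lists, 2 of 4, 3 of 4 and 3 of 6 markers were under 1 CPM on average. In bulk RNA, fewer cells of a type and less RNA per cell cannot be told apart.

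Both folding systems need partners. HSPD1 encodes the HSP60 subunit that forms the mitochondrial ring, and HSPE1 encodes HSP10, the lid that closes it, so that both proteins act together on polypeptides imported into the matrix. The CCT ring, also called TRiC, is built from a different subunit at each position and folds actin, tubulin and other cytosolic proteins, many of them delivered by prefoldin. HSPD1 and HSPE1 are well known for being read outwards from a shared region between their start sites, and the genes of heat shock proteins are classically activated by heat shock factor 1, which binds inverted repeats of the letters GAA.

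In the Mmul_10 assembly, with the annotation of NCBI RefSeq, HSPD1 lies on chromosome 12 at 84597521 to 84613404 on the minus strand and HSPE1 at 84613533 to 84616493 on the plus strand. Only 128 bases separate their outermost annotated start sites. The CCT genes are spread over chromosome 4 (TCP1), chromosome 11 (CCT2), chromosome 1 (CCT3), chromosome 13 (CCT4 and CCT7), chromosome 6 (CCT5) and chromosome 3 (CCT6A and CCT8). Since HSPD1, CCT4 and TCP1 had the largest differences described below, the sequence around the start sites of all 10 genes was searched, from 500 bases before to 200 bases after the outermost annotated start, for 3 alternating units of a heat shock element, GAANNTTCNNGAA or TTCNNGAANNTTC, on both strands. The search was chosen after the values had been seen. Such a run was found near HSPE1 and CCT4, and in 192 of 20787 windows of the same length over all genes (0.924%). The sequences with the full runs, and the shorter runs of 2 units (GAANNTTC or TTCNNGAA) at HSPD1 and TCP1, are shown. CCT5 and CCT6A, with smaller differences, also had runs of 2 units, which are not printed. The sequences shown therefore do not relate such runs to the differences. Capitals mark the repeat units and the bases between them.
HSPE1, 4 units, plus strand, chr12:84613163-84613192: gctcagTTCCAGAACTTTCCGGAAagtgcc
CCT4, 4 units, plus strand, chr13:46879522-46879551: gccgctTTCTGGAAGGTTCGTGAAggcagt
HSPD1, 2 units, minus strand, chr12:84613858-84613887: tttcagaaattTTCAAGAAacgctgggtca
TCP1, 2 units, plus strand, chr4:10813266-10813295: gcctacaacctTTCTAGAAggcactagaat
TCP1, 2 units, plus strand, chr4:10813318-10813347: ttgtttgcaccGAAGGTTCcgcctctttcc

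The run of 4 units listed for HSPE1 starts 364 bases before the HSPE1 start site and therefore lies inside the HSPD1 locus, in a first exon of a predicted HSPD1 transcript. Measured from the start of the curated HSPD1 transcript, at 84612930, the same run lies 239 bases upstream. The run of 2 units listed for HSPD1 starts 472 bases before the outermost HSPD1 start. It lies within the HSPE1 gene, outside annotated exons. The run at CCT4 starts 117 bases after the CCT4 start, within an exon. Runs of 2 units occurred in 6 of the 10 windows, at HSPD1, HSPE1, TCP1, CCT4, CCT5 and CCT6A, and in 26.4% of windows over all genes. CCT2, CCT3, CCT7 and CCT8 had neither. These letter matches are descriptions of the reference, and binding was not measured.

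HSPD1 differed most between the conditions among the 10 genes. Scaled by TMM, its level was 333 CPM with uLPS and 1148 CPM with MRS2578 in R07110, and 340 CPM with uLPS and 1901 CPM with MRS2578 in R12016. It was 323 and 407 CPM in R14143. In R02046, as labelled, the order was the opposite, with 606 CPM with uLPS and 369 CPM with MRS2578. The MRS2578 level was thus 3.44 times the uLPS level in R07110, 5.59 times in R12016 and 1.26 times in R14143, and 0.609 times in R02046, or 1.64 times if its conditions are exchanged. As labelled, the groups overlapped, since the uLPS library of R02046 was higher than the MRS2578 libraries of R02046 and R14143. With the exchange, the lowest MRS2578 level, 407 CPM, was above the highest uLPS level, 369 CPM. The share of all genes tested whose groups separated in this way was not counted.

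As labelled, the direction was not the same in all donors. In the edgeR quasi-likelihood fit, blocked by donor, the HSPD1 log2 fold change was 0.98 with an SE of 0.52 (95% interval -0.24 to 2.21, adjusted p = 0.878, n = 4 donors). With R02046 exchanged it was 1.33 with an SE of 0.33 (95% interval 0.57 to 2.08, edgeR adjusted p = 0.109), and without R02046 it was 1.54 with an SE of 0.40 (95% interval 0.56 to 2.53, edgeR adjusted p = 0.217, n = 3 donors). Without R12016 the value as labelled was 0.47. HSPD1 did not pass the threshold of 0.05 under any of these assignments. A log2 fold change at least this large was found in 1.01% of the 12131 genes tested as labelled, in 0.61% with the exchange and in 0.643% without R02046. HSPD1 was among the genes the study itself picked on these libraries, so its direction here is no independent evidence. The paper's edgeR analysis of these libraries reports genes past an FDR of 0.05 and describes HSPD1 as strongly induced. HSPD1 did not pass in the fits above, and the source of this difference was not tested. By RT-PCR, the paper also reports HSPD1 among heat shock genes raised in microglia by MRS2578 alone, which was not analysed here. The 4 fibroblast genes were also higher with MRS2578 in the donors with the largest HSPD1 differences, with summed levels of 124 and 201 CPM in R07110 and 74.7 and 190 CPM in R12016, and with 325 and 391 CPM in R02046 as labelled, whereas R14143 had 962 CPM with uLPS and 373 CPM with MRS2578. Their part in the HSPD1 values was not tested.

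**Figure D1:**
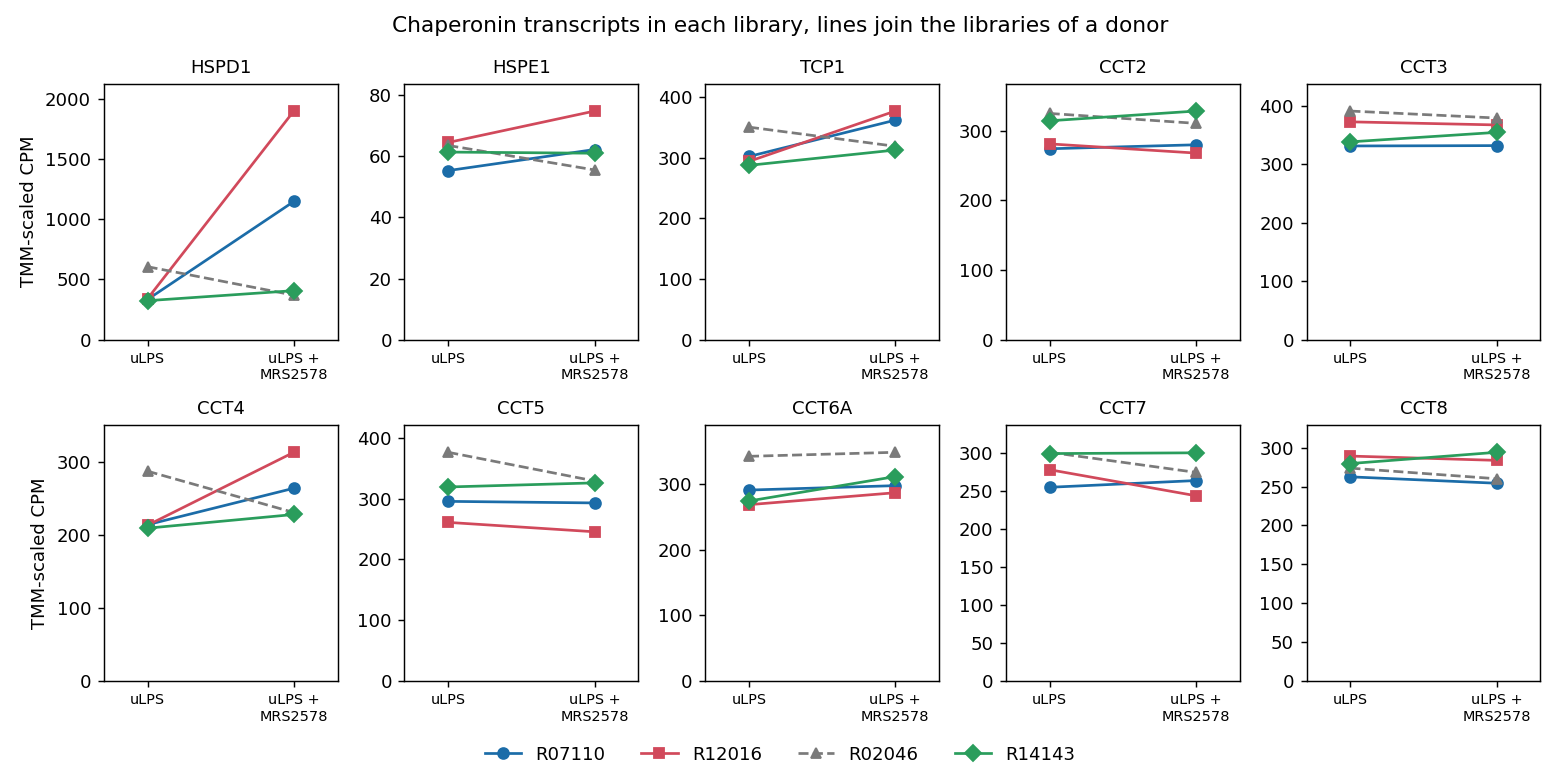
TMM-scaled CPM (y axis, from 0, with a separate scale for each gene) of the 10 chaperonin genes in the 8 libraries with uLPS and with uLPS and MRS2578. Each line joins both libraries of a donor, and the dashed line is R02046 as labelled. HSPD1 reaches 1148 and 1901 CPM with MRS2578 in R07110 and R12016, while most CCT lines are nearly flat.

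HSPE1, the lid of the HSP60 ring, did not follow HSPD1 in size. Its level was 55.4 CPM with uLPS and 62.3 CPM with MRS2578 in R07110, 64.6 and 74.9 CPM in R12016, 63.6 and 55.6 CPM in R02046 as labelled, and 61.4 and 61.1 CPM in R14143. The groups overlapped, and the largest within-donor ratio was 1.16, in R12016, where that of HSPD1 was 5.59. The edgeR log2 fold change of HSPE1 was 0.05 with an SE of 0.11 (95% interval -0.20 to 0.30, adjusted p = 0.959, n = 4 donors), 0.14 with the exchange (95% interval -0.06 to 0.34, edgeR adjusted p = 0.466) and 0.12 without R02046 (95% interval -0.12 to 0.37, edgeR adjusted p = 0.657, n = 3 donors). The within-donor log2 difference of HSPD1 exceeded that of HSPE1 by 1.62 in R07110, 2.27 in R12016 and 0.34 in R14143, and was lower by 0.52 in R02046 as labelled, which gave a mean of 0.93 ± 1.25 (SD, n = 4 donors). The mean was 1.19 ± 0.92 with the exchange (SD, n = 4 donors) and 1.41 ± 0.98 without R02046 (SD, n = 3 donors).

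The balance of both transcripts within a library differed accordingly. Per kb of annotated exon, the HSPD1 level was between 0.927 and 1.69 times the HSPE1 level in the 4 libraries labelled uLPS. With MRS2578 it was 3.25 times in R07110, 4.49 times in R12016 and 1.18 times in both R02046 and R14143. With R02046 exchanged, the uLPS range was 0.927 to 1.18 and R02046 had a ratio of 1.69 with MRS2578. Levels of HSPE1 are uncertain because of copies elsewhere in the genome. In a search of 100-base windows along 1 transcript of each gene, 100% of the HSPE1 windows and 90.2% of the HSPD1 windows had a match of at least 98% identity elsewhere in Mmul_10, and 97.5% and 46.3% had an identical one. The authors counted only uniquely mapped reads within exons, so reads from such windows can be lost or assigned to a copy. Among the CCT genes the share of windows with a match of at least 98% was 24.1% for TCP1, 19.9% for CCT7, 19.5% for CCT6A, 9.34% for CCT2 and 0.92% for CCT5, and it was 0% for CCT3, CCT4 and CCT8. The part of these copies in the difference between HSPD1 and HSPE1 was not tested.

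**Figure D2:**
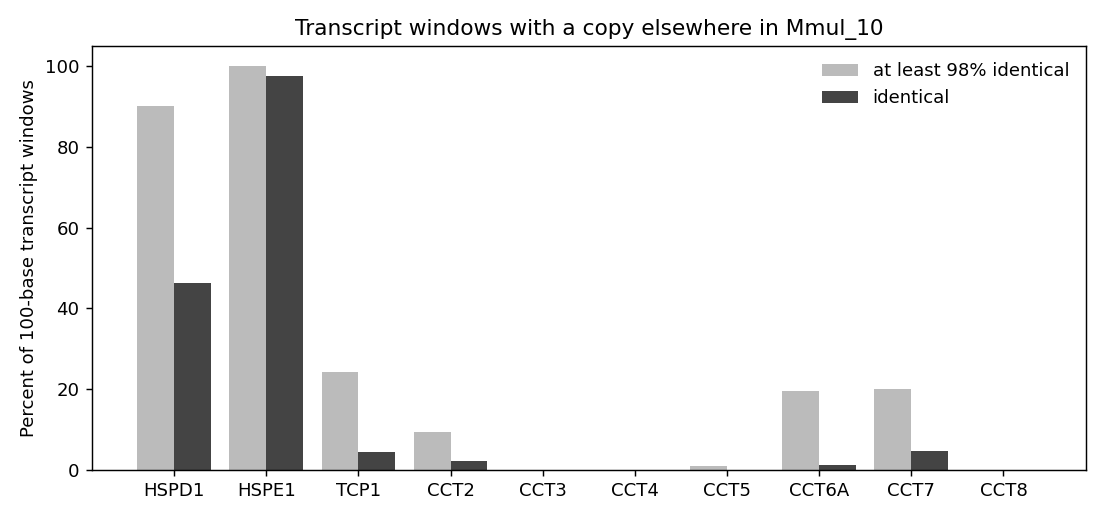
Percent of 100-base windows (y axis), taken every 10 bases along 1 transcript of each chaperonin gene (x axis), with a match elsewhere in Mmul_10. Light bars count matches of at least 98% identity and dark bars identical matches. HSPE1 (100% and 97.5%) and HSPD1 (90.2% and 46.3%) stand above the CCT genes, of which TCP1 is highest at 24.1%.

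A gene row without a symbol, ENSMMUG00000007216, had the pattern most like HSPD1 of 8480 genes compared, those tested with a mean of at least 10 CPM. Likeness was measured as the root mean square distance between the log2 differences within the 4 donors, and was 0.02 for this row. Its counts were between 52.8% and 58.1% of the HSPD1 counts in each of the 8 libraries, with 2842 against 5331 counts in the uLPS library of R12016 and 15886 against 30050 in its MRS2578 library. Whether the row counts reads of the same transcript was not tested. The next genes were HSPA5, the chaperone of the endoplasmic reticulum (distance 0.14), HSP90AA1, the stress-inducible cytosolic HSP90 (0.21), NUDC, which encodes an HSP90 co-chaperone (0.26), and UBB, which encodes polyubiquitin (0.26). These distances describe 4 donors and carry no test.

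Of the 8 CCT genes, TCP1 and CCT4 had the highest log2 fold changes under all 3 assignments, although neither passed the test. TCP1, the alpha subunit of the ring, had 302 CPM under uLPS alone and 362 CPM with MRS2578 in R07110, 294 and 377 CPM in R12016, 351 and 319 CPM in R02046 as labelled, and 288 and 313 CPM in R14143. CCT4, the delta subunit, was at 214 and 264 CPM in R07110, 214 and 314 CPM in R12016, 288 and 231 CPM in R02046 as labelled, and 210 and 228 CPM in R14143. Both were thus higher with MRS2578 in all donors but R02046 and higher in the uLPS-labelled library of R02046, as was HSPD1. The differences were far smaller than those of HSPD1, with ratios of up to 1.28 for TCP1 and 1.47 for CCT4, both in R12016.

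The edgeR log2 fold change of CCT4 was 0.17 with an SE of 0.15 as labelled (95% interval -0.18 to 0.52, adjusted p = 0.906, n = 4 donors). It was 0.32 with the exchange (95% interval 0.11 to 0.54, edgeR adjusted p = 0.153) and 0.33 without R02046 (95% interval 0.04 to 0.61, edgeR adjusted p = 0.319, n = 3 donors). That of TCP1 was 0.15 with an SE of 0.11 as labelled (95% interval -0.12 to 0.42, edgeR adjusted p = 0.898, n = 4 donors), 0.22 with the exchange (95% interval 0.02 to 0.41, edgeR adjusted p = 0.255) and 0.25 without R02046 (95% interval -0.00 to 0.49, edgeR adjusted p = 0.371, n = 3 donors). Neither gene passed the threshold. On the opposite strand, exons of ACAT2 overlap 42.46% of the TCP1 exon bases, and exons of COMMD1 and of the uncharacterised LOC114671959 overlap 1.8% and 5.16% of those of CCT4. The library kit marks strand, but the strand setting of the counting is not given in the sources used here, so TCP1 counts are uncertain. COMMD1, at a mean of 10.7 CPM, differed between the conditions by -0.02 on the log2 scale as labelled (edgeR adjusted p = 0.991). ACAT2, with the larger overlap, had no tested row under that symbol, so no value is given for it.

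The other 6 subunits stayed close together. CCT2, the beta subunit, ranged from 268 to 328 CPM over the 8 libraries, CCT3, the gamma subunit, from 331 to 391 CPM, and CCT5, the epsilon subunit, from 245 to 376 CPM. CCT6A, the zeta subunit, ranged from 269 to 349 CPM, CCT7, the eta subunit, from 244 to 301 CPM, and CCT8, the theta subunit, from 254 to 294 CPM. For each of them the uLPS and MRS2578 ranges overlapped. Their edgeR log2 fold changes were between -0.07, for CCT5 and CCT7, and 0.08, for CCT6A, and the 95% intervals as labelled ran no lower than -0.29 and no higher than 0.30. With the exchange the estimates were between -0.00, for CCT7, and 0.07, for CCT6A, and without R02046 between -0.05 and 0.10 for the same genes. Within donors, their log2 differences were between -0.05 and 0.05 in R07110, between -0.19 and 0.09 in R12016, between -0.19 and 0.03 in R02046 as labelled and between 0.00 and 0.18 in R14143. A difference of 0.19 or less in either direction was common, found in 49.7%, 35.8%, 40% and 43.3% of all genes tested in these 4 donors. CCT6A was the only chaperonin gene with a higher level with MRS2578 in all 4 donors as labelled, from 291 to 298 CPM in R07110, 269 to 287 CPM in R12016, 343 to 349 CPM in R02046 and 274 to 312 CPM in R14143, a pattern shared by 6.43% of all genes tested. With the exchange CCT6A was no longer among these, and HSPD1, TCP1 and CCT4 were higher with MRS2578 in all 4 donors, 3 of the 10 genes against 10.6% of all genes.

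**Figure D3:**
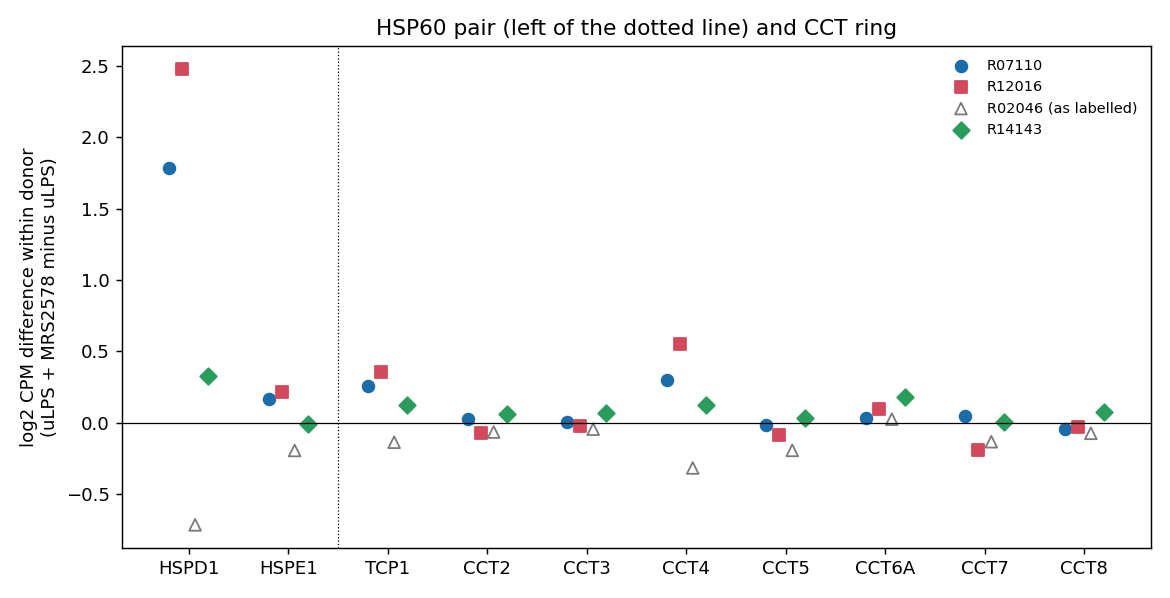
Within-donor difference in log2 CPM, uLPS and MRS2578 minus uLPS (y axis), of the HSP60 pair, left of the dotted line, and the 8 CCT genes (x axis). Each symbol is a donor, and the open triangle is R02046 as labelled. HSPD1 runs from -0.72 to 2.48, CCT4 from -0.32 to 0.55 and TCP1 from -0.14 to 0.36, while the other genes lie between -0.19 and 0.21.

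None of the 10 chaperonin genes passed an adjusted p of 0.05 in edgeR's quasi-likelihood test as labelled, where 0% of all genes tested passed. With R02046 exchanged, 0 of the 10 and 0.618% of all genes passed (0 genes in a fit that left out the donor block), and without R02046 0 of the 10 and 0% passed. At an unadjusted p under 0.05 the count was 0 of 10 as labelled (5.14% of all genes), 3 of 10 with the exchange, HSPD1, CCT4 and TCP1 (16.5% of all genes), and 2 of 10 without R02046, HSPD1 and CCT4 (13.6% of all genes). As labelled, edgeR's likelihood ratio test and DESeq2's Wald test also called 0 of the 10. The exchange was combined with these tests after seeing the data. With it, the edgeR likelihood ratio test called HSPD1 (adjusted p = 0.0042) among 616 of the 12131 genes tested. DESeq2's Wald test with the exchange called 0 of the 10 and 583 of the 12131 genes. In R07110, R12016 and R14143, the donors without conflicting labels, 4 of the 10 genes were higher with MRS2578 in each donor, HSPD1, TCP1, CCT4 and CCT6A, as were 17.0% of all genes, and 0 were lower in each, as were 19.8% of all genes. CCT6A was the exception in R02046, where the other 9 chaperonin genes were higher in the library labelled uLPS, against 50.0% of all genes.

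**Figure D4:**
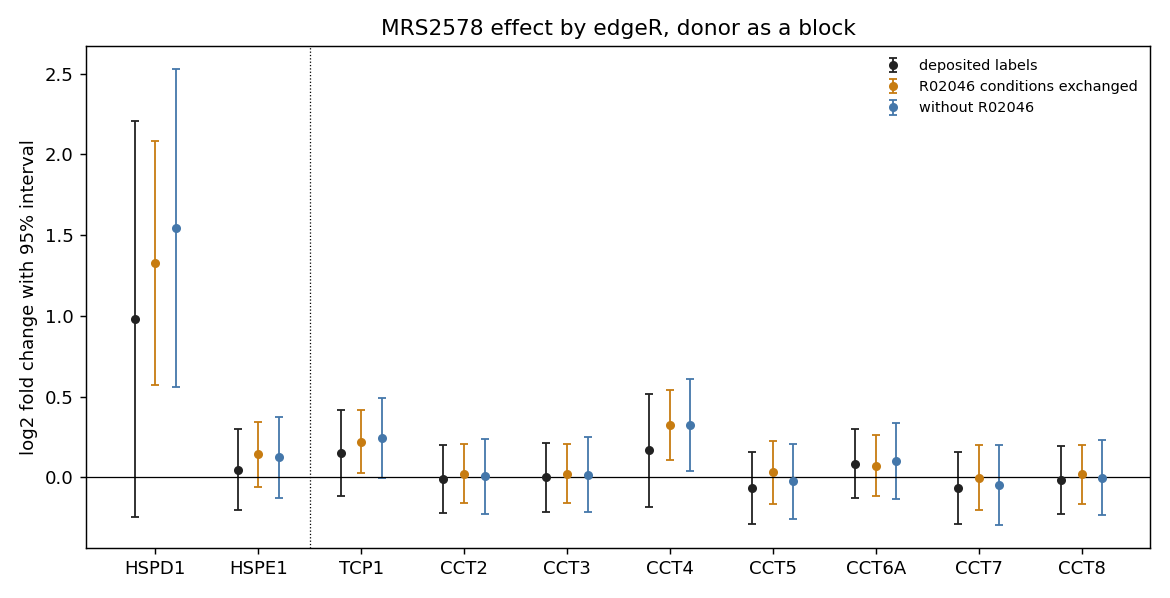
Log2 fold change of each chaperonin gene (x axis), uLPS and MRS2578 against uLPS, from edgeR with the donor as a block. Points are estimates and bars 95% intervals for the deposited labels (black), R02046 exchanged (orange) and without R02046 (blue). The HSPD1 interval spans 0 as labelled (-0.24 to 2.21) and lies above 0 with the exchange (0.57 to 2.08), and the intervals of the 6 subunits CCT2, CCT3, CCT5, CCT6A, CCT7 and CCT8 span 0 under all 3 assignments.

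Contrasted as a whole, the HSP60 pair exceeded the CCT ring in the donors with the large HSPD1 difference. The mean log2 difference of HSPD1 and HSPE1 minus that of the 8 CCT genes was 0.90 in R07110, 1.27 in R12016, 0.08 in R14143 and -0.34 in R02046 as labelled. Over the donors it was 0.48 ± 0.74 as labelled (SD, n = 4 donors), 0.65 ± 0.54 with the exchange (SD, n = 4 donors) and 0.75 ± 0.61 without R02046 (SD, n = 3 donors), so the SD was above the mean as labelled and below it otherwise. Leaving out R12016 lowered it to 0.21 as labelled. HSPD1 carried the contrast. The HSPD1 difference minus that of the ring was 0.94 ± 1.36 as labelled and 1.24 ± 0.995 with the exchange (SD, n = 4 donors each), and 1.45 ± 1.1 without R02046 (SD, n = 3 donors). The HSPE1 difference minus that of the ring was 0.01 ± 0.12 as labelled and 0.05 ± 0.10 with the exchange (SD, n = 4 donors each), and 0.05 ± 0.12 without R02046 (SD, n = 3 donors). The ring mean itself was 0.08 in each of R07110, R12016 and R14143 and -0.12 in R02046 as labelled. Within the ring the subunits were furthest apart in R12016, with an SD of 0.25 over the 8 genes between CCT7 (-0.19) and CCT4 (0.55), and closest in R14143, with an SD of 0.06.

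By the same distance over 4 donors, HSPE1 lay nearer the CCT genes than HSPD1. The root mean square distance of HSPE1 was 0.10 to the ring mean and 1.43 to HSPD1. Of the ring genes, CCT4 lay furthest from the mean of its other members (0.32) and nearest HSPD1 (1.24), followed by TCP1 (0.19 and 1.34). The other 6 lay between 0.08, for CCT3, and 0.16, for CCT7, from the mean of the remaining ring. The genes outside the chaperonins nearest to the ring mean were a row without a symbol (ENSMMUG00000054976), MDH1, the cytosolic malate dehydrogenase, SURF4, FOXRED1 and COPS8, with distances from 0.03 to 0.04.

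Levels within the ring were uneven, and their order was kept only in part. Per kb of annotated exon, CCT3 was the highest CCT gene in all 8 libraries, with a mean of 167 ± 13.2 CPM per kb with uLPS (SD, n = 4), and CCT2 followed at 145 ± 12.1, CCT7 at 131 ± 10.0, CCT4 at 109 ± 17.8, CCT6A at 108 ± 12.3 and CCT8 at 102 ± 4.24 CPM per kb. CCT5 (93.2 ± 14.4) and TCP1 (86.5 ± 8.04 CPM per kb) were lowest, and 1 of them was the lowest in each library. The highest was between 1.78 and 2.34 times the lowest. From CCT4 downwards, neighbours in this order of uLPS means differed by less than the larger of their SDs. The order also changed between libraries. In R12016, CCT4 was at 101 CPM per kb with uLPS, below CCT2 (137) and CCT7 (129). With MRS2578 in that donor it was at 148 CPM per kb, above CCT2 (130) and CCT7 (113). HSPE1, at 124 ± 8.06 CPM per kb with uLPS (SD, n = 4), lay within the range of the CCT genes. HSPD1 had a mean of 143 ± 48.9 CPM per kb with uLPS and 341 ± 258 with MRS2578 (SD, n = 4). These levels depend on the exon lengths of the annotation, which for TCP1 include a long predicted transcript, and on the copies described above. The counted rows carry Ensembl identifiers while the lengths are from RefSeq, so the counted exons may differ from the exons measured.

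Genes that work with the chaperonins were described by lists. None of the genes in any list passed an adjusted p of 0.05 by edgeR, as labelled, with the exchange or without R02046. Of 13 CCT cofactors and prefoldin subunits, 11 had a row and were tested. The log2 fold change was positive for 3 of them as labelled, 7 with the exchange and 6 without R02046. Their median was -0.06 as labelled, 0.09 with the exchange and 0.01 without R02046. As labelled, the largest differences were those of CCT6B, a paralogue of CCT6A (-0.72, SE 0.24, edgeR adjusted p = 0.878), and of the prefoldin subunit PFDN2 (-0.18, SE 0.14, edgeR adjusted p = 0.901). With the exchange these were -0.41 and 0.09, and without R02046 -0.73 and -0.06. CCT6B was low, at a mean of 1.95 CPM, and its within-donor differences were between -0.72 and -0.64 in all 4 donors as labelled. Of actin and tubulin genes, the classical clients of the ring, 8 of 11 had a row and were tested. Positive among them were 2 as labelled, 4 with the exchange and 3 without R02046. Their median was -0.05 as labelled, -0.01 with the exchange and -0.03 without R02046. ACTG1 (-0.23) and TUBG1 (-0.16) differed most as labelled, and were at -0.31 and -0.11 with the exchange and at -0.36 and -0.18 without R02046. The median over all genes tested was -0.01 as labelled and 0.00 in the other 2 assignments. As labelled, 47.5% of all genes tested had a log2 fold change of 0.0013 or more. With the exchange 50.3% were at -0.00082 or more, and without R02046 49.6% were at -0.0012 or more.

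In the mitochondrion, 14 chaperones and proteases of the matrix and inner membrane were tested. Positive among them were 5 as labelled, 8 with the exchange and 6 without R02046. Their median log2 fold change was -0.08 as labelled, 0.04 with the exchange and -0.02 without R02046. As labelled, those with the largest differences were both partners of the mitochondrial HSP70, GRPEL2, a nucleotide exchange factor (-0.51, SE 0.14, edgeR adjusted p = 0.878), and DNAJA3, a J-domain co-chaperone (-0.18, SE 0.09, edgeR adjusted p = 0.878). With the exchange GRPEL2 was at -0.43 and DNAJA3 at -0.03, and without R02046 they were at -0.60 and -0.14. By donor, the median of this list was 0.01 in R07110, 0.07 in R12016, -0.20 in R02046 as labelled and -0.12 in R14143, beside HSPD1 differences of 1.78, 2.48, -0.72 and 0.33. Of 13 transcripts encoded by the mitochondrial genome, 12 were tested, 1 of them positive as labelled, 3 with the exchange and 1 without R02046. The median of these transcripts was -0.44 as labelled, -0.37 with the exchange and -0.49 without R02046. By donor it was -0.64, -0.89, -0.02 and -0.10 in the same donors. COX3 (-0.49) and ATP8 (-0.46) differed most as labelled, and were at -0.49 and -0.54 with the exchange and at -0.65 and -0.66 without R02046. Their summed level was 2753.5 CPM with uLPS and 1873 CPM with MRS2578 in R07110 and 3127.5 and 1869 CPM in R12016, the donors with the largest HSPD1 differences. The part of this in the HSPD1 values was not tested.

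The cytosolic heat shock chaperones had the highest median of these lists. All 12 had a positive log2 fold change under each of the 3 assignments, with a median of 0.77 as labelled, 0.93 with the exchange and 1.14 without R02046. By donor, the median was 1.34 in R07110, 1.82 in R12016, 0.42 in R14143 and -0.35 in R02046 as labelled, where 0 of the 12 were positive. DNAJA4, a J-domain co-chaperone, had a log2 fold change of 2.62 with an SE of 1.66 (edgeR adjusted p = 0.880), and HSPB1, a small heat shock protein, of 2.11 with an SE of 1.35 (edgeR adjusted p = 0.882). With the exchange these were 3.73 and 2.93, and without R02046 4.03 and 3.39. The list was chosen with the study's results on these libraries known and is not independent evidence of a direction. Of 10 cell cycle genes, 1 was positive as labelled, 2 with the exchange and 2 without R02046. Their median was -0.23 as labelled, -0.18 with the exchange and -0.26 without R02046. AURKB (-0.63) and BUB1 (-0.40) differed most as labelled. These were at -0.30 and -0.50 with the exchange and at -0.60 and -0.59 without R02046.

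**Figure D5:**
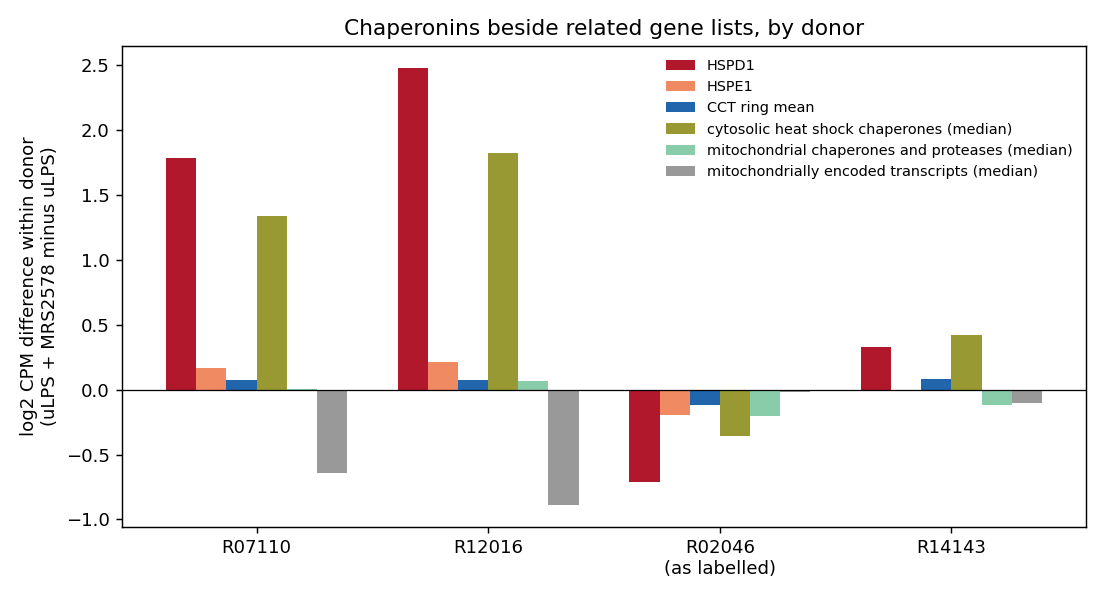
Within-donor difference in log2 CPM, uLPS and MRS2578 minus uLPS (y axis), in the 4 donors (x axis). Bars are HSPD1, HSPE1, the mean of the 8 CCT genes, and the medians of 12 cytosolic heat shock chaperones, 14 mitochondrial chaperones and proteases and 12 mitochondrially encoded transcripts. HSPD1 and the cytosolic chaperones are high together in R07110 (1.78 and 1.34) and R12016 (2.48 and 1.82), where the CCT mean is 0.08.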

How the data were processed

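The 10 genes and the lists were chosen with earlier results of these data known. The authors deposited raw counts per gene, 1 file per library: poly(A) RNA, a directional Illumina kit, alignment to Mmul_10 and counting of unique exonic reads with HTSeq. The paper names fastp and STAR, while the submitters' processing notes name Trimmomatic 0.30, TopHat2 2.0.14, SAMtools 1.3 and HTSeq 0.6.1p1. The strand setting and annotation release are not given in the sources used here.

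Counts were analysed in R 4.3.3 with edgeR 4.0.16: filterByExpr (minimum count 10), TMM scaling, and the quasi-likelihood F-test of uLPS and MRS2578 against uLPS with the donor as a block, with Benjamini-Hochberg adjustment over all genes tested and a threshold of 0.05. The SE is the log2 fold change divided by the square root of F. Within-donor differences are of log2 CPM with a prior count of 2. DESeq2 1.42.0 was an alternative. The contrast of the pair with the ring has no test. All chaperonin genes are named, and in each list the 2 genes with the largest absolute log2 fold change. Both libraries of a donor come from 1 animal, and their deviations from the group means correlated at 0.458 to 0.602 within donors. No pair of libraries was a duplicate (chi-square per degree of freedom of at least 19.6 over 28 pairs). Tested on simulated counts for this comparison, the fit recovered 195 of 200 genes changed 3-fold, with 204 called of 12039, and called 0 of 12038 with none changed. The simulation gave every gene the same spread and every donor the same change. It therefore gives no measure of power for changes that differ between donors, as in these data. Positions, exon lengths and sequences came from the RefSeq annotation of Mmul_10, while the counted gene rows carry Ensembl identifiers. Copies were sought with BLAST 2.17.0 in windows of 100 bases, 10 bases apart. The labels give 10 ng/mL M-CSF and the paper another dose.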

Additional observations from a re-analysis of the deposited data

Results flagged for a closer look

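Among 30 groups of 4 values examined, 10 genes in each condition and 10 in the within-donor differences, 2 held a value far from the others by Dixon's criterion, where chance gives about 1 in 20. The count of flagged groups is near that rate. HSPD1 was at 606 CPM in the uLPS-labelled library of R02046 and between 323 and 340 CPM in the other 3 uLPS libraries (Dixon ratio 0.94). CCT4 was at 288 CPM in the same library and between 210 and 214 CPM in the others (Dixon ratio 0.939). This is the donor whose conditions are given differently by the labels and by the study's expression table. Whether the flagged values relate to that difference was not tested.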

How the results depend on the processing

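As labelled, 0 genes passed by edgeR's quasi-likelihood test, 5 by its likelihood ratio test and 1 by DESeq2's Wald test, with 0 chaperonin genes each time, and 0 of either passed with DESeq2 size factors, no low-count filter, 10 counts in every library, an earlier quasi-likelihood estimation or any donor left out. The donors pair the libraries, and as labelled the count without this replicate block was also 0. With R02046 exchanged, 75 genes passed with the block and 0 without it, and 0 chaperonin genes either way. The alternatives that combine the R02046 exchange with another choice were added after seeing the data. With the exchange, 39 genes passed with the earlier estimation, 616 by the likelihood ratio test, with 1 chaperonin gene (HSPD1, adjusted p = 0.0042), and 583 by DESeq2's Wald test. Leaving out a donor as well gave 0 to 919 genes and 0 to 2 chaperonin genes (5 genes without R12016, 919 genes with HSPD1 at adjusted p = 0.0176 and CCT4 at 0.0411 without R14143, all by edgeR). The cause was not tested. HSPD1, CCT4, TCP1 and CCT6A kept a positive log2 fold change under all 19 settings, HSPD1 between 0.47 and 1.66 and CCT4 between 0.04 and 0.39. The near-zero log2 fold changes of 6 genes turned sign under some settings. CCT3 was -0.0014 with DESeq2 size factors, -0.0013 by DESeq2's Wald test, -0.00023 with no replicate block and -0.0054 with no low-count filter. With the exchange, CCT2 was 0.022 by each edgeR test and 0.016 by the Wald test, CCT5 was 0.031 and 0.024, and CCT8 was 0.018 and 0.011. With the exchange and no replicate block, CCT2 was 0.025, CCT5 0.042, CCT7 0.0024 and CCT8 0.019. With the exchange and without R07110, CCT2 was 0.018, CCT5 0.043 and CCT8 0.038. Without R12016 these were 0.059, 0.076 and 0.040, and CCT7 was 0.068. Without R14143, CCT2 was 0.0059 and CCT5 0.028. As labelled with a donor left out, the ranges were -0.0036 to 0.12 for HSPE1, -0.039 to 0.014 for CCT2 and -0.025 to 0.016 for CCT3. With 4 donors, the 95% intervals of CCT2, CCT3, CCT5, CCT6A, CCT7 and CCT8 reached up to 0.30 from 0, and smaller changes were not resolved.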
